A study of Mus musculus with 8 samples.

Results

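Fatty acid oxidation and ketogenesis were followed through 33 genes in mouse liver. Probes were taken by gene symbol, but the genes were listed with earlier results of these data known. The genes cover mitochondrial and peroxisomal beta-oxidation, the carnitine shuttle, electron transfer proteins, a ketone body enzyme and a few genes of the regulator PPAR-alpha. Of these, 31 had at least 1 listed probe (52 probes in all) and 28 could be tested, out of 11022 genes tested on the arrays. Total RNA was taken from snap-frozen, tumour-free liver of A/J male mice, an inbred laboratory strain, and hybridised to 8 Illumina BeadArrays. The 4 groups had 2 arrays each. They were an olive oil vehicle group, a group given the liver toxin carbon tetrachloride (CCl4), and groups given CCl4 plus 2 mg or 5 mg of erlotinib, an inhibitor of the EGF receptor kinase. All mice were gavaged 3 times a week for 18 weeks, with CCl4 as a 40% solution in every group but vehicle, so both erlotinib groups also carry CCl4 and no group received erlotinib alone. The design text places death in week 19 after a washout, whereas the sample sources name week 18. The weight unit and schedule of erlotinib and the age of the mice are not stated in the labels. The labels do not tie the 2 arrays of a group to separate mice, so p-values measure the spread between arrays, which may be technical.

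In mitochondria, long-chain fatty acids enter as carnitine esters through Cpt1a, Slc25a20 and Cpt2 and are shortened by acyl-CoA dehydrogenases, hydratases and thiolases, with electrons passed on through Etfa, Etfb and Etfdh. Peroxisomes shorten very long and branched chains with their own enzymes, among them Hsd17b4 and the thiolases Acaa1a and Acaa1b. In liver the acetyl-CoA made this way feeds ketone bodies, and PPAR-alpha, a nuclear receptor bound by fatty acids, activates many of these genes during fasting.

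Raw median intensity was 99.8 to 130 per array, and 23.0% to 26.1% of probes stood above background, taken as the 99th percentile of 1326 probes for chemosensory receptors (odorant, vomeronasal, trace amine) that liver should lack. After normalization the arrays of a group correlated at 0.984 to 0.988 across genes, which are not independent replicates. Among hepatocyte markers 17 of 20 could be tested, and their summed linear level was 131200 to 133200 in vehicle, 133400 to 134600 with CCl4, 129700 to 131200 with erlotinib 2 mg and 129100 to 135600 with erlotinib 5 mg, so the arrays bear out the labelled tissue.

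The choice of genes, with Bdh1 as the only ketone body enzyme, and probe coverage limited what could be read of ketogenesis. Acsl1, which activates long-chain fatty acids, and Hadha, a subunit of the trifunctional protein, were not analysed here. The probes of Crot, a peroxisomal carnitine acyltransferase, of Hadh, the short-chain hydroxyacyl-CoA dehydrogenase, and of Ppara itself were under background on every array. Their mean signal did not exceed the 40th percentile of all probes, so these genes were not tested. The single Ppara probe read 5.93 and 6.32 in vehicle, 6.01 and 5.95 with CCl4, 6.13 and 5.99 with erlotinib 2 mg, and 6.16 and 6.19 with erlotinib 5 mg (normalized log2 intensity, replicates 1 and 2), which says nothing about its expression. Of the 28 tested genes, 20 were above background on all 8 arrays. Cpt1a, Hadhb, Eci2, Ehhadh and Vnn1 were above background on no array, Pdk4 on 5, Acadl on 6 and Decr2 on 7, so a small difference in the dim genes has little meaning. The probe of Acat1, a mitochondrial thiolase outside the 33 genes, was above background on 1 array, and among the 33 the ketone arm rests on Bdh1.

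PPAR-alpha is known to bind direct repeats of the type AGGTCANAGGTCA, and its binding was not tested here. Promoter stretches are shown for Slc25a20, Etfa and Acaa1b, which are 3 of the 10 genes that were lower with CCl4. They come from RefSeq (build GRCm38.p6) and are written 5′ to 3′ along the gene, with capitals marking a match to AGGTCANAGGTCA on either strand with at most 2 mismatches.
Slc25a20, chr9:108662036-108662155, plus strand: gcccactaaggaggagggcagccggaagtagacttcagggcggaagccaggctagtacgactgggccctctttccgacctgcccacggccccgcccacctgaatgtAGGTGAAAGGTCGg
Etfa, chr9:55512244-55512363, minus strand: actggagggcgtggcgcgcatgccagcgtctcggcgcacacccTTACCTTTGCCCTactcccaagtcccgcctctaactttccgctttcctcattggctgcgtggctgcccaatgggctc
Acaa1b, chr9:119157094-119157213, minus strand: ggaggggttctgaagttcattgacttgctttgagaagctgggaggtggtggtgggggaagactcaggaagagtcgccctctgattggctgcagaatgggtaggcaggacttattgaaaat
The Slc25a20 match runs along the gene just after its start, and the Etfa match lies on the opposite strand before the start. Windows of 300 bases around the start were listed for 29 of the 33 genes, all but Acaa2, Decr1, Hsd17b4 and Vnn1. A match was found in 3 of the 29, Slc25a20, Etfa and the peroxisomal oxidase Acox2. That was 3 of the 32 windows of these genes, beside 3.9% of all 32851 windows. Of the genes lower with CCl4, Hsd17b4 had no window to search, and of the others only Slc25a20 and Etfa held a match. Acox2, not printed, gave 0.07 with CCl4. The Acaa1a and Acaa1b windows held none at this setting, which says only that these letters are not in these windows.

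Repeated CCl4 was compared with vehicle to see how it altered these genes. The largest difference was that of the peroxisomal thiolase Acaa1b, 2.16-fold lower with CCl4, followed by the electron transfer subunit Etfa, the carnitine carrier Slc25a20 and the peroxisomal reductase Decr2, each 1.72-fold lower. Of 28 tested genes 10 fell and 0 rose, where 5.92% of all genes tested fell and 6.74% rose (limma, Benjamini-Hochberg adjusted p under 0.05). At an unadjusted p under 0.05 the counts were 13 lower and 1 higher, the latter being Pdk4. Over all 11022 genes they were 1127 lower and 1247 higher. The median log2 difference was -0.30 over the 28 genes and -0.00 over all genes. The 10 calls depended on the scaling of the arrays: with median scaling in place of quantile normalization 2 remained, Etfa and Acaa1b, while the median of the 28 was -0.32 and the calls over all genes dropped from 1396 to 481.

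Both erlotinib groups as a pool were then compared with CCl4 alone. Acaa1b was 2.68-fold higher, the mitochondrial isomerase Eci1 and Acaa1a were each 1.92-fold higher and Decr2 was 1.90-fold higher. Of 28 genes 13 rose and 0 fell, where 5.35% of all genes rose and 6% fell. At an unadjusted p under 0.05 there were 15 higher and 0 lower, beside 1034 higher and 1151 lower of all 11022 genes. The median was 0.40 over the 28 genes, beside -0.00 over all genes. With median scaling 3 calls remained, Acaa1a, Acaa1b and Decr2, and without CCl4 replicate 2 there were 8. Because the CCl4 arrays enter both comparisons, an array that reads low there moves both, and the values of each are given side by side below with no test of their relation. CCl4 replicate 2 read lower than replicate 1 in 19 of the 28 genes. Erlotinib 2 mg replicate 2 read higher than its replicate 1 in 19 of the 28 as well. Neither count was set against its share over all genes.

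**Figure D1:**
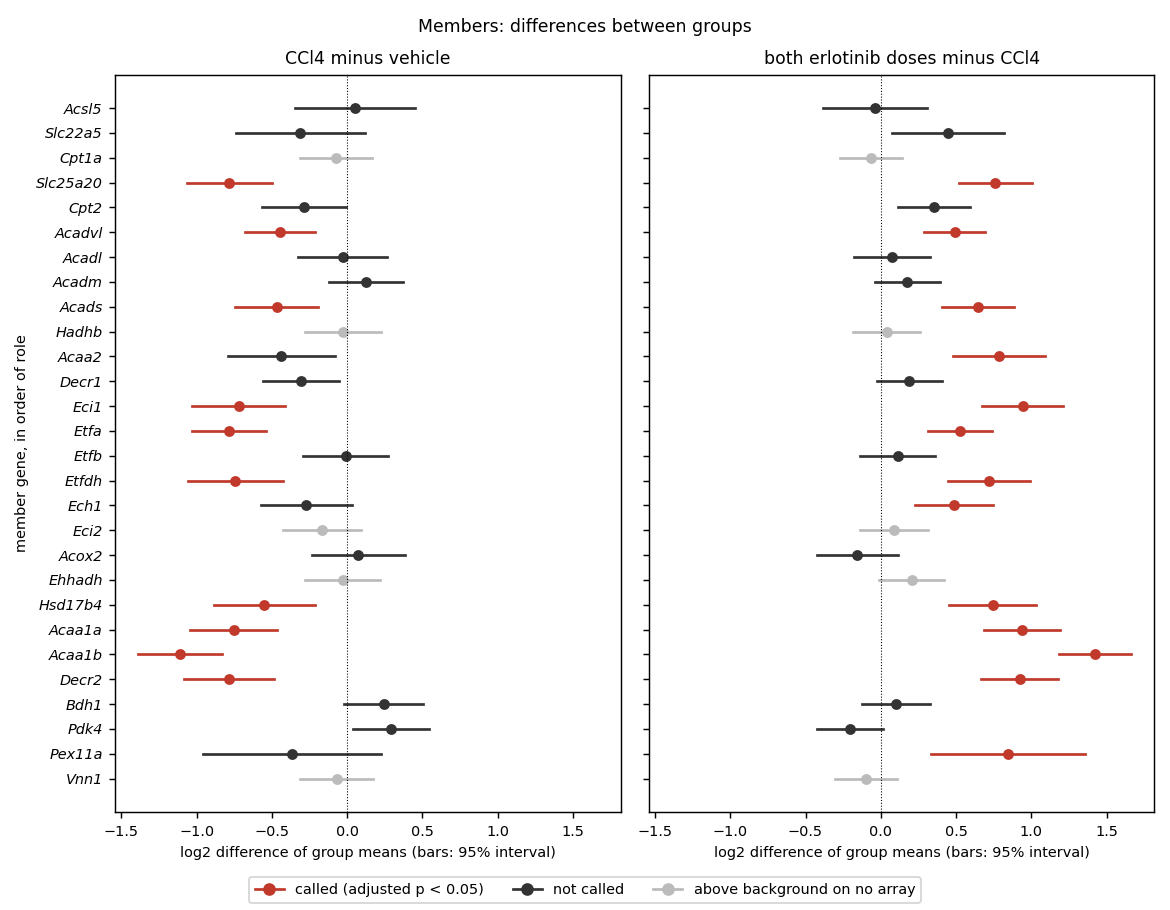
Log2 differences of group means for the 28 tested genes, CCl4 minus vehicle on the left and both erlotinib doses minus CCl4 on the right, with 95% intervals. Red points passed the threshold (10 on the left, all below 0, and 13 on the right, all above 0), and grey points belong to genes above background on no array.

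Of the genes for activation and entry, the carnitine carrier Slc25a20 was the clear case. It read 9.94 and 9.90 in vehicle, 9.33 and 8.94 with CCl4, 9.71 and 9.87 with erlotinib 2 mg and 10.02 and 10.00 with erlotinib 5 mg. The CCl4 arrays lay below all 6 others. The difference was -0.78 ± 0.13 (SE) with CCl4 (adjusted p 0.000554) and 0.76 ± 0.12 for erlotinib against CCl4 (adjusted p 0.000222). A dimmer Slc25a20 probe above background in these groups gave -0.26 (adjusted p 0.298) and 0.27 (adjusted p 0.187), so only the brightest probe passed, and its dimmest probe was under background.

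Neither the synthetase Acsl5 nor the transferase Cpt2 passed in these comparisons. Acsl5 stood at 0.05 with CCl4 and -0.04 with erlotinib, its CCl4 arrays being apart at 10.95 and 11.74. Cpt2, which releases acyl-CoA inside the mitochondrion, gave -0.28 (adjusted p 0.222) and 0.35 (adjusted p 0.0582). Cpt1a, the outer membrane transferase that controls entry, read 6.20 and 6.23 in vehicle, 6.19 and 6.10 with CCl4, 5.93 and 6.03 with erlotinib 2 mg and 6.14 and 6.21 with erlotinib 5 mg, all under background. Slc22a5, the plasma membrane carnitine transporter, gave -0.31 with CCl4 (adjusted p 0.444) and 0.45 with both doses (adjusted p 0.136). A dimmer Slc22a5 probe above background gave 0.008 (adjusted p 0.989) and 0.22 (adjusted p 0.254).

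Among the 4 acyl-CoA dehydrogenases, those for very long and for short chains fell and those for long and medium chains did not pass. Acadvl, the very-long-chain enzyme, read 9.27 and 9.34 in vehicle, 8.84 and 8.89 with CCl4, 9.32 and 9.35 with erlotinib 2 mg and 9.39 and 9.36 with erlotinib 5 mg. Its CCl4 arrays were the lowest, by -0.45 ± 0.11 against vehicle (adjusted p 0.0112) and with 0.49 ± 0.10 for erlotinib against CCl4 (adjusted p 0.00203). Acads, the short-chain enzyme, read 9.01 and 8.83 in vehicle, 8.62 and 8.29 with CCl4, 8.99 and 9.14 with erlotinib 2 mg and 9.11 and 9.15 with erlotinib 5 mg. The CCl4 arrays again lay below the rest (-0.47 ± 0.13, adjusted p 0.0245, and 0.64 ± 0.11, adjusted p 0.000844), and a second Acads probe gave -0.47 and 0.59, both past the threshold. The Acads call with CCl4 was lost without vehicle replicate 1 (-0.37), without CCl4 replicate 2 (-0.31) and in a fit on the CCl4 and vehicle arrays alone. The Acadvl call was lost without vehicle replicate 2 (-0.41) and without CCl4 replicate 1 (-0.43).

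Acadm, the medium-chain enzyme, did not follow them on its brightest probe. It read 11.27 and 11.41 in vehicle, 11.44 and 11.49 with CCl4, 11.71 and 11.53 with erlotinib 2 mg and 11.68 and 11.64 with erlotinib 5 mg, differences of 0.13 (adjusted p 0.649) and 0.18 (adjusted p 0.391). Vehicle, CCl4 and the pooled erlotinib arrays did not overlap, but neither difference passed. A second, dimmer Acadm probe gave -0.27 with CCl4 (adjusted p 0.315) and 0.44 with erlotinib (adjusted p 0.0241), so the 2 probes differ in sign for CCl4. Acadl, the long-chain enzyme, gave -0.03 and 0.07, near background.

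Of the later mitochondrial steps, Acaa2, the thiolase that cleaves acetyl-CoA from the chain, was measured by 4 probes. The brightest read 10.34 and 10.16 in vehicle, 10.13 and 9.48 with CCl4, 10.48 and 10.71 with erlotinib 2 mg and 10.61 and 10.57 with erlotinib 5 mg. The CCl4 arrays lay far apart, and the difference from vehicle did not pass (-0.44 ± 0.17, adjusted p 0.115), while that of erlotinib from CCl4 did (0.78 ± 0.14, adjusted p 0.00131), though not without CCl4 replicate 2 (0.47). The other probes gave -0.60, -0.88 and -0.31 with CCl4, of which the first and second passed, and 0.74, 1.18 and 0.49 with erlotinib, all past the threshold. Since the brightest probe stood for each gene, Acaa2 is not among the 10 genes counted as lower with CCl4.

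Eci1, an isomerase that lets unsaturated chains through, had one of the larger differences in mitochondria. It read 8.72 and 8.81 in vehicle, 8.28 and 7.81 with CCl4, 9.07 and 9.05 with erlotinib 2 mg and 8.80 and 9.04 with erlotinib 5 mg. CCl4 lay below all other arrays (-0.72 ± 0.15, adjusted p 0.00236, and 0.94 ± 0.13, adjusted p 7.21e-05), and the first call was lost without CCl4 replicate 2 (-0.49). Decr1, the reductase for unsaturated chains, gave -0.31 (adjusted p 0.117) and 0.19 (adjusted p 0.34). Hadhb, the thiolase subunit of the trifunctional protein, was under background and gave -0.03 and 0.04.

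Of the electron transfer proteins, Etfa and Etfdh fell with CCl4 and Etfb did not pass. Etfa, the alpha subunit of the electron transfer flavoprotein, read 12.02 and 11.93 in vehicle, 11.23 and 11.15 with CCl4, 11.67 and 11.73 with erlotinib 2 mg and 11.64 and 11.82 with erlotinib 5 mg. The CCl4 arrays were lowest and the erlotinib arrays lay between them and vehicle (-0.79 ± 0.12, adjusted p 0.000148, and 0.53 ± 0.10, adjusted p 0.0017). Of 3 other Etfa probes, 2 passed with CCl4 (-0.84 and -0.57) and 1 did not (-0.30, adjusted p 0.117), and with erlotinib the first passed (0.64) and the others gave 0.24 and 0.16. Etfb, the partner subunit, read 12.06 and 11.98 in vehicle and 12.12 and 11.90 with CCl4, a difference of -0.01 with a 95% interval from -0.29 to 0.27, and a second Etfb probe gave 0.04. The interval of Etfb lay above that of Etfa, which ran from -1.03 to -0.54, though the difference between the subunits was not tested.

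Etfdh, the dehydrogenase that hands these electrons to ubiquinone, read 8.03 and 8.09 in vehicle, 7.60 and 7.04 with CCl4, 8.002 and 7.985 with erlotinib 2 mg and 8.08 and 8.07 with erlotinib 5 mg. Both CCl4 arrays were below the rest and differed from each other more than any other pair did (-0.74 ± 0.15, adjusted p 0.00218, and 0.72 ± 0.13, adjusted p 0.00101). The second Etfdh probe was under background, and the call with CCl4 was lost when both probes were averaged (-0.33). The erlotinib call was lost without CCl4 replicate 2 (0.44).

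**Figure D2:**
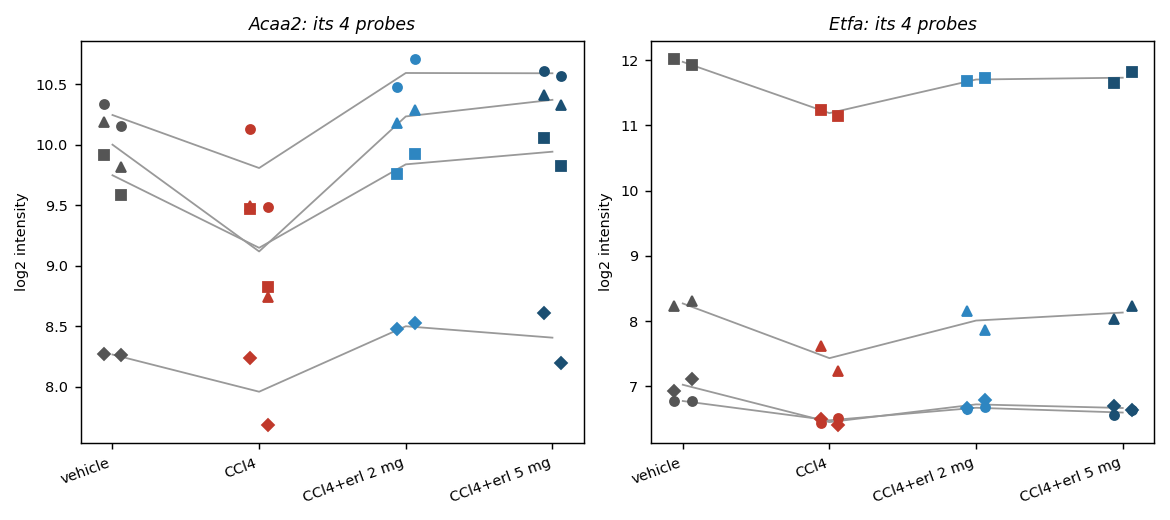
Normalized log2 intensity of each of the 4 probes of Acaa2 (left) and Etfa (right) on every array. Colours are the treatment groups, marker shapes the probes, and lines join the group means; every Acaa2 and Etfa probe has its lowest group mean with CCl4.

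Of the peroxisomal enzymes, Acaa1b had the largest difference of the 28 genes in both comparisons. Acaa1b, a thiolase that PPAR-alpha is known to induce in mice, read 12.84 and 12.88 in vehicle, 11.83 and 11.67 with CCl4, 13.29 and 13.08 with erlotinib 2 mg and 13.32 and 13.01 with erlotinib 5 mg. The CCl4 arrays lay about a log2 unit below vehicle and the 4 erlotinib arrays above it (-1.11 ± 0.13, adjusted p 1.56e-05, and 1.42 ± 0.11, adjusted p 5.62e-07). Its paralogue Acaa1a read 11.24 and 11.39 in vehicle, 10.71 and 10.41 with CCl4, 11.30 and 11.59 with erlotinib 2 mg and 11.59 and 11.52 with erlotinib 5 mg. It too was lowest with CCl4 (-0.75 ± 0.14, adjusted p 0.000917, and 0.94 ± 0.12, adjusted p 4.06e-05). Acaa1a and Acaa1b are close copies, and whether each probe reads its own gene alone was not tested.

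Decr2, the peroxisomal reductase for unsaturated chains, read 7.07 and 7.27 in vehicle, 6.54 and 6.24 with CCl4, 7.06 and 7.37 with erlotinib 2 mg and 7.48 and 7.33 with erlotinib 5 mg. The CCl4 arrays were the lowest, and 1 of them was under background, which makes the size less certain (-0.78 ± 0.14, adjusted p 0.000863, and 0.92 ± 0.12, adjusted p 6.43e-05). A second Decr2 probe gave -0.59 and 0.69, both past the threshold. Hsd17b4, the bifunctional hydratase and dehydrogenase of peroxisomes, read 11.18 and 11.32 in vehicle, 11.01 and 10.39 with CCl4, 11.42 and 11.41 with erlotinib 2 mg and 11.52 and 11.41 with erlotinib 5 mg. Both CCl4 arrays were below vehicle, replicate 2 by more (-0.55 ± 0.16, adjusted p 0.0287), and the call was lost without CCl4 replicate 2, without either vehicle array, with the authors' values and with the CCl4 and vehicle arrays alone. Erlotinib against CCl4 gave 0.74 ± 0.14 (adjusted p 0.00133), which was 0.43 and no longer passed without CCl4 replicate 2. The CCl4 difference was -0.24 without that array, and -0.61 and -0.47 without vehicle replicates 1 and 2.

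Not all peroxisomal enzymes passed. Acox2, the oxidase of branched chains and bile acid intermediates, gave 0.07 with CCl4 (95% interval from -0.24 to 0.38) and -0.16 with erlotinib (-0.43 to 0.11). Ehhadh, the other bifunctional enzyme, was under background and gave -0.03 and 0.21. Of the isomerases known in both compartments, Ech1 read 10.12 and 10.54 in vehicle, 10.19 and 9.93 with CCl4, 10.56 and 10.48 with erlotinib 2 mg and 10.64 and 10.51 with erlotinib 5 mg. Vehicle and CCl4 overlapped (-0.27 ± 0.14, adjusted p 0.296), and the erlotinib arrays lay above CCl4 (0.49 ± 0.12, adjusted p 0.0145), a call lost without CCl4 replicate 2 (0.36). Eci2 was under background (-0.16 and 0.09).

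**Figure D3:**
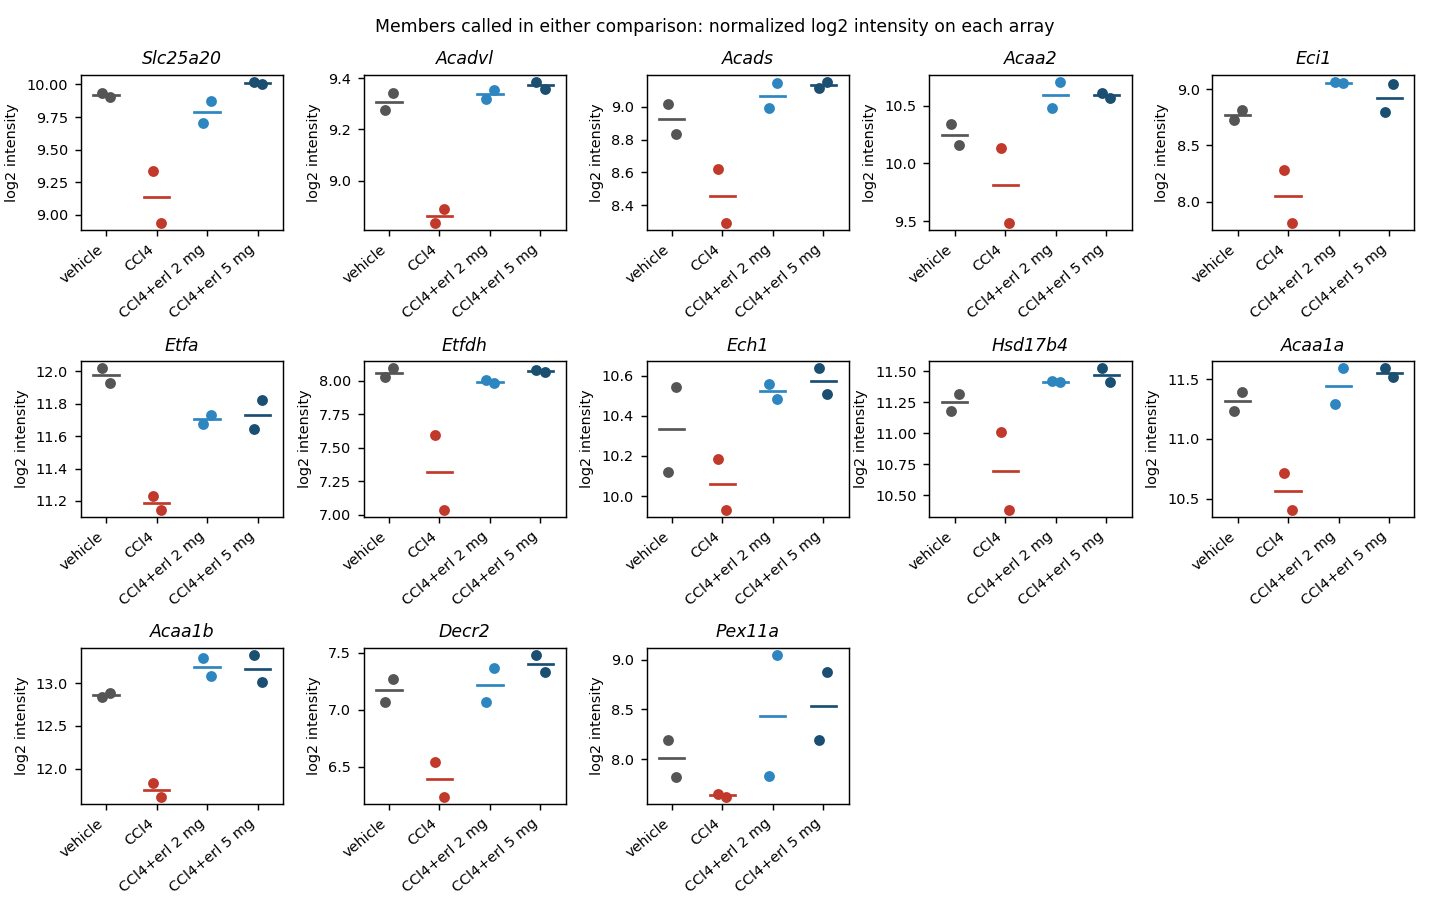
Normalized log2 intensity on each of the 8 arrays for the 13 genes that passed in CCl4 against vehicle or in both erlotinib doses against CCl4; points are arrays, bars the mean of the 2 arrays, and each panel has its own axis. The genes were chosen by that test, and both CCl4 arrays lie below the 4 erlotinib arrays in each; CCl4 and erlotinib arrays did not overlap in 17 of the 28 tested genes and in 27.2% of all genes.

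The compartments were compared through the medians of their tested enzymes, as a description, since enzymes are not replicates. With CCl4 the peroxisomal median was -0.65 (4 of 6 fell, range -1.11 to 0.07) and the mitochondrial median -0.44 (5 of 11 fell, range -0.79 to 0.13). With erlotinib against CCl4 the peroxisomal median was 0.83 (4 of 6 rose, range -0.16 to 1.42) and the mitochondrial median 0.49 (6 of 11 rose, range 0.04 to 0.94). The ranges overlapped throughout. The medians include Ehhadh (peroxisomal) and Hadhb (mitochondrial), which were under background on every array, as was Eci2. The gap between the medians, -0.21 with CCl4 and 0.34 with erlotinib, turned on Ech1 and Eci2: counted as peroxisomal, they brought it to 0.03 and 0.12. It also turned on the CCl4 array, at -0.47 and 0.60 without replicate 1 and -0.12 and 0.16 without replicate 2.

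On single arrays, the class median relative to each gene's mean over 8 arrays was 0.02 and 0.13 in vehicle for peroxisomal enzymes and 0.03 and 0.02 for mitochondrial ones. With CCl4 the peroxisomal values were -0.35 and -0.81 and the mitochondrial ones -0.23 and -0.33. Each CCl4 array thus had the lower peroxisomal value, by a small amount on replicate 1. The erlotinib arrays ran from 0.10 to 0.34 for peroxisomal and from 0.10 to 0.16 for mitochondrial enzymes.

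**Figure D4:**
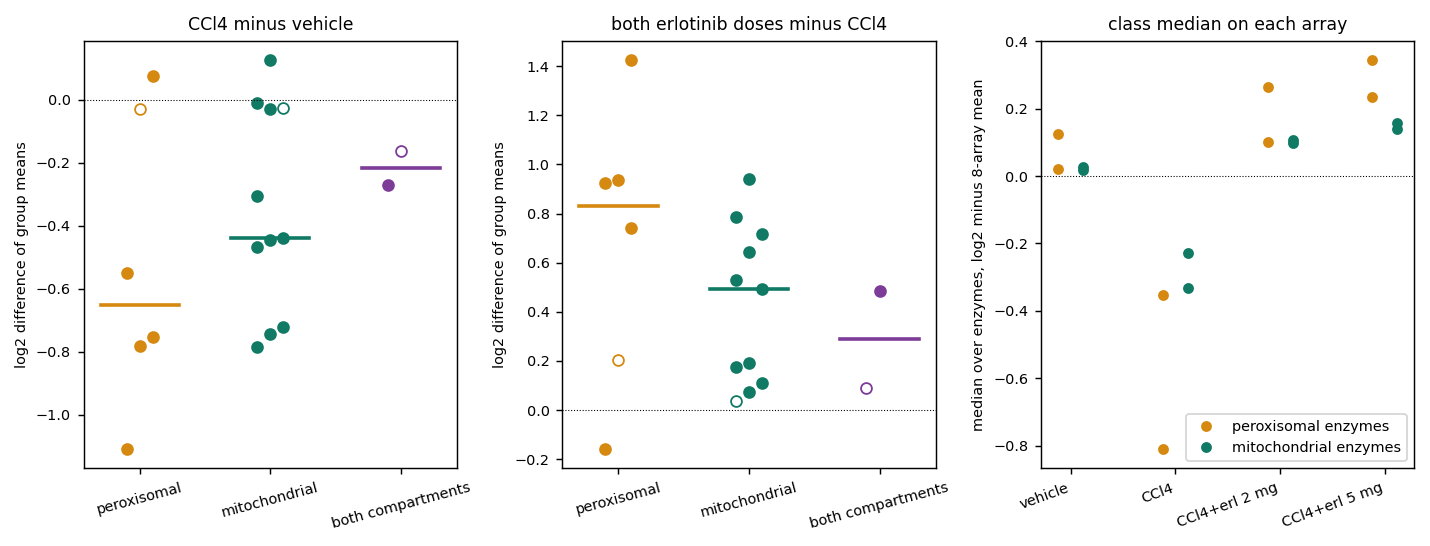
Left and middle, log2 difference of each tested enzyme by compartment for CCl4 minus vehicle and for both erlotinib doses minus CCl4, with bars at the medians and open points for genes above background on no array; right, the median of each class on each array, relative to each gene's mean over the 8 arrays. The peroxisomal median lies further from 0 than the mitochondrial one in both comparisons, with overlapping ranges.

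Neither the ketone enzyme Bdh1 nor the PPAR-alpha targets Pdk4 and Vnn1 passed in these comparisons. Bdh1, which interconverts acetoacetate and hydroxybutyrate, read 8.37 and 8.62 in vehicle, 8.83 and 8.66 with CCl4, 8.75 and 8.82 with erlotinib 2 mg and 8.95 and 8.85 with erlotinib 5 mg. Vehicle was the lowest group, and the CCl4 and 2 mg arrays overlapped (0.24, adjusted p 0.276, with CCl4, and 0.10, adjusted p 0.736, with erlotinib), and a second Bdh1 probe gave -0.02 with CCl4. Pdk4, the kinase that shuts off pyruvate dehydrogenase in fasting, gave 0.29 with CCl4 (adjusted p 0.147) and -0.20 with erlotinib (adjusted p 0.309). Vnn1, a pantetheinase, was under background.

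Pex11a, which drives the division of peroxisomes, read 8.19 and 7.82 in vehicle, 7.65 and 7.62 with CCl4, 7.83 and 9.04 with erlotinib 2 mg and 8.19 and 8.88 with erlotinib 5 mg. The erlotinib arrays lay above CCl4 but spread widely (0.85 ± 0.24, adjusted p 0.0306), and the difference from vehicle of CCl4 did not pass (-0.37, adjusted p 0.544). A second Pex11a probe gave 0.68 with erlotinib (adjusted p 0.0274) and the dimmest was under background. The Pex11a call was lost under most alternatives: with median scaling, the authors' values, uncorrected background, an intensity trend and robust prior or the mean of its probes, without CCl4 replicate 1 (0.86) or 2 (0.83), and without erlotinib 2 mg (0.54) or 5 mg (0.68) replicate 2.

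By dose, erlotinib 2 mg against CCl4 gave 11 genes higher and 0 lower, where 4.16% of all genes rose and 4.42% fell. At an unadjusted p under 0.05 the counts were 14 and 1, beside 948 and 1043 of all 11022 genes. Erlotinib 5 mg gave 13 higher and 0 lower, where 4.42% rose and 4.68% fell. Unadjusted, the counts were 15 and 0, beside 938 and 1039 of all 11022 genes. In the main fit Ech1 and Slc22a5 were called at 5 mg only. Ech1 gave 0.51 (adjusted p 0.0312) at 5 mg and 0.46 (adjusted p 0.0565) at 2 mg. The Ech1 call at 5 mg was lost with the authors' values, with median scaling, and without CCl4 replicate 2 or either 5 mg array. At 2 mg Ech1 was called in a fit on the compared arrays only, and without either vehicle array or CCl4 replicate 1. Slc22a5 gave 0.81 (adjusted p 0.0156) at 5 mg and 0.08 (adjusted p 0.91) at 2 mg. Its arrays were at 7.58 and 7.21 in vehicle, 7.06 and 7.11 with CCl4, 6.73 and 7.60 at 2 mg and 7.82 and 7.97 at 5 mg. The 5 mg arrays were the highest, and the direct difference between the doses was 0.73 with an adjusted p of 0.638. The dimmer Slc22a5 probe did not pass against CCl4 at 5 mg (0.35, adjusted p 0.0909) or at 2 mg (0.09, adjusted p 0.825). The Slc22a5 call at 5 mg was lost with the authors' values, with median scaling, with an intensity trend and robust prior, and without any of CCl4 replicate 1 (0.79) or 2 (0.83) and 5 mg replicate 1 (0.88) or 2 (0.74). No gene of the 28 differed between the doses by limma (0 of 28, beside 0.0181% of all genes), and Slc22a5 was the 1 gene at an unadjusted p under 0.05. With median scaling 1 gene, Acaa1b, passed at each dose. Without CCl4 replicate 2 the counts were 5 and 6, and without erlotinib 2 mg replicate 2 the 2 mg count was 5.

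Against vehicle, neither erlotinib group differed in any of the 28 genes at the adjusted threshold of limma. At 2 mg the count was 0, beside 3.1% of all genes, with 3 higher and 1 lower at an unadjusted p under 0.05. At 5 mg it was 0, beside 1.9%, with 4 higher and 0 lower. The unadjusted counts over all genes are not given here for these contrasts. The median differences were 0.04 and 0.13. This does not show equal levels: for Acaa1b the 95% interval ran from 0.05 to 0.60 at 2 mg and from 0.03 to 0.59 at 5 mg, for Acadm from 0.04 to 0.53 and from 0.07 to 0.57, and for Bdh1 from 0.03 to 0.55 and from 0.13 to 0.66. Etfa lay on the other side, from -0.52 to -0.02 at 2 mg and from -0.49 to 0.00 at 5 mg. Slc25a20 ran from -0.41 to 0.15 at 2 mg and from -0.19 to 0.37 at 5 mg, and Etfdh from -0.38 to 0.25 and from -0.30 to 0.33.

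**Figure D5:**
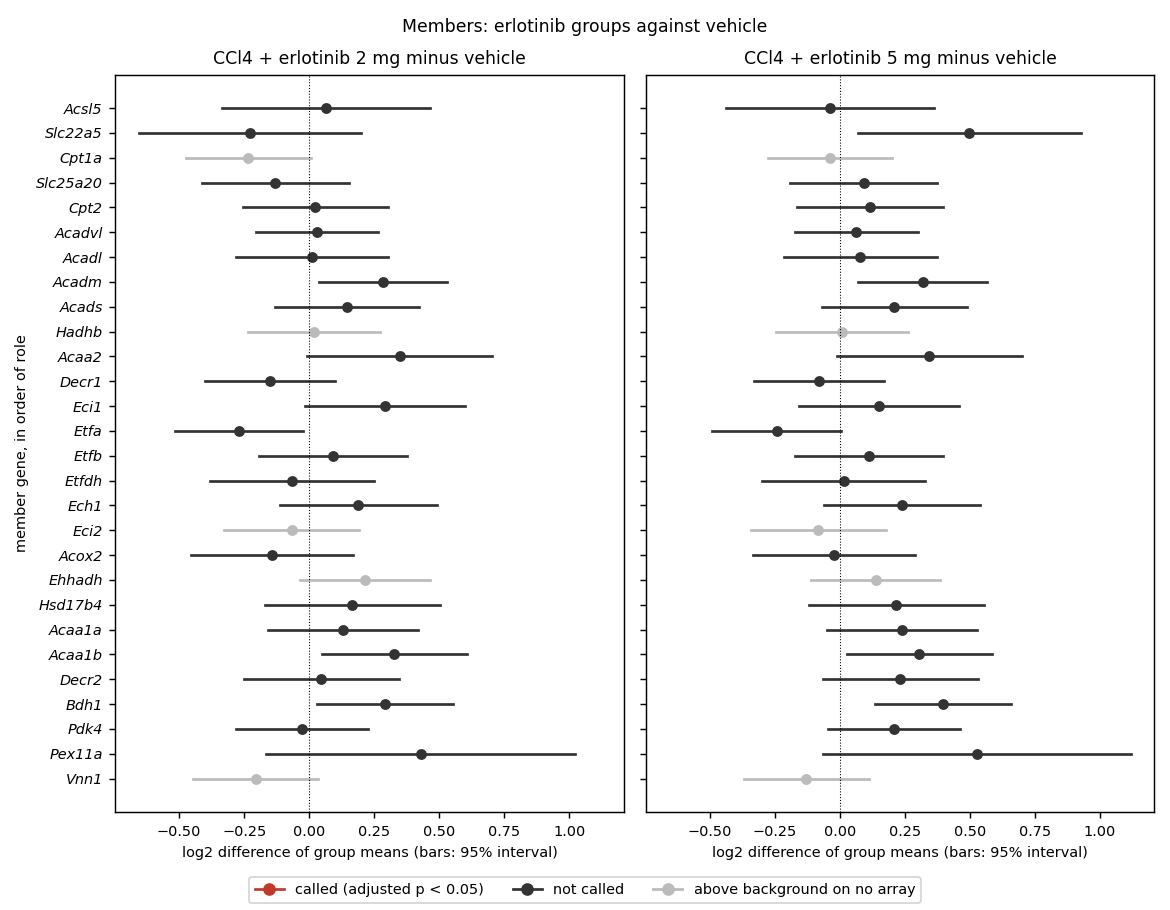
Log2 difference from vehicle of the 28 tested genes in the groups given CCl4 with erlotinib 2 mg (left) and 5 mg (right), with 95% intervals. No gene passed the threshold, and most intervals span 0.

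A list of 67 other genes of these pathways, of which 55 could be tested, was read in the same fit. With CCl4 2 rose and 20 fell, and with erlotinib against CCl4 18 rose and 1 fell, with medians of -0.27 and 0.22 over the 55, where the medians over all genes were -0.00. Over all genes 6.74% rose and 5.92% fell with CCl4, and 5.35% rose and 6% fell with erlotinib. The largest called differences with CCl4 were Acss2, an acetyl-CoA synthetase of the cytosol and nucleus (-2.01 ± 0.24, adjusted p 1.7e-05), Pxmp2, a peroxisomal membrane channel (-1.55 ± 0.16), Cyp4a14, a fatty acid omega-hydroxylase and PPAR-alpha target (1.51 ± 0.35, adjusted p 0.00675), Sirt3, a mitochondrial deacetylase (-1.40 ± 0.14), the peroxisomal catalase Cat (-1.35 ± 0.24) and Acsm5, a medium-chain synthetase (-1.24 ± 0.15). With erlotinib against CCl4 they were Acss2 (1.90 ± 0.21), Pxmp2 (1.42 ± 0.14), Sirt3 (1.19 ± 0.12), Cat (1.17 ± 0.21), Acsm3 (1.02 ± 0.14) and Acsm5 (0.99 ± 0.13). Plin2, which coats lipid droplets, was the other gene that rose with CCl4 (0.89) and the gene that fell with erlotinib (-0.67).

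Cyp4a14 was higher in all 3 groups given CCl4. It read 7.40 and 9.14 in vehicle, 9.54 and 10.02 with CCl4, 10.55 and 10.09 with erlotinib 2 mg and 10.80 and 10.78 with erlotinib 5 mg. The vehicle arrays lay far apart, and without vehicle replicate 1 the difference with CCl4 was 0.64 and no longer passed. Against vehicle, Cyp4a14 (2.05), Aldh3a2, a fatty aldehyde dehydrogenase (1.10), and the thioesterase Acot3 (0.59) rose at 2 mg. At 5 mg Cyp4a14 (2.52), Acot3 (1.17) and Aldh3a2 (0.94) rose and Bdh2 fell by 0.56. Cyp4a14 and Acot3 belong to families of close copies, which their probes may not tell apart. The Bdh2 call was lost in most alternatives run and with median scaling none of the calls against vehicle remained.

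Markers of other cell types moved in the same comparisons. Of 7 tested macrophage markers 4 rose with CCl4 and 2 fell with erlotinib against CCl4, and their summed level was 1140 to 1261 in vehicle, 2930 to 3129 with CCl4, 1769 to 2370 with erlotinib 2 mg and 1938 to 1947 with erlotinib 5 mg. For stellate cell and myofibroblast markers, 4 of 9 rose with CCl4 and 1 fell with erlotinib against CCl4, and the sum was 929.8 to 945.7 in vehicle, 1396 to 1874 with CCl4, 1359 to 1402 with 2 mg and 1070 to 1180 with 5 mg; the Col3a1 and Rgs5 probes were under background. With CCl4, of 4 neutrophil markers 1 rose, and 0 of 9 endothelial and 0 of 4 T and NK cell markers passed. The endothelial Kdr and Lyve1, the T and NK cell Cd3g, Cd4 and Nkg7, the neutrophil Retnlg and Mpo, and the single tested B cell (Ms4a1) and cholangiocyte (Sox9) markers were under background on every array, so those cells could hardly be read. Of 17 hepatocyte markers 6 fell and 2 rose with CCl4, with a median of -0.18 beside -0.30 for the oxidation genes. With erlotinib against CCl4 2 rose and 2 fell, with a median of 0.19 beside 0.40. The part of these cells in the oxidation result was not tested, and in whole tissue fewer hepatocytes and less RNA per hepatocyte cannot be told apart.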

How the data were processed

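The deposited non-normalized table, per the file headers and values, holds linear probe intensity, 1 column an array. A second deposited table holds the authors' normalized intensity, by a method the labels do not state; it served as an alternative (rank correlation with the first 0.9996 to 0.9999 on the same array). From the non-normalized intensity, limma 3.58.1 in R 4.3.3 gave normexp correction (offset 50), quantile normalization and log2 values. Of 25697 probes, 23978 carried 1 gene symbol, 0 several and 1719 none. A mean above the 40th percentile was required (15418 probes), and a gene was read from its brightest probe. The files hold no detection p-value, which the receptor background replaced. All 8 arrays entered 1 limma model (4 residual and 11.9 prior degrees of freedom), adjusted by Benjamini-Hochberg over 11022 genes and tested on simulated data. Other probes of a gene were read in a separate limma fit on all kept probes with a gene symbol, adjusted over those probes. A gene rose or fell at adjusted p under 0.05. Each gene with a probe was named, with array values for those called and for Ppara, Cpt1a and Bdh1, and at most 6 other pathway genes per comparison by size; Slc22a5, Acadm, Plin2 and other array values were chosen after being seen. The genes and lists were chosen with earlier results of these data known. Alternatives were median scaling, the authors' values, omission of the background correction, no dim-probe filter, a receptor-based filter, robust trended eBayes, probe means, a fit on the compared arrays only, and leaving out each array; for the other pathway genes they were added after seeing the data. Slides are not given, so no slide effect was fitted. Array number limits the precision.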

Additional observations from a re-analysis of the deposited data

How the results depend on the processing

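With median scaling the genes called were 2 with CCl4, 3 with both erlotinib doses, 1 with 2 mg and 1 with 5 mg against CCl4; calls over all genes also dropped, and the cause was not tested. Leaving out each array gave 7 to 10 calls with CCl4, 8 to 14 with both doses, 5 to 12 with 2 mg and 6 to 14 with 5 mg against CCl4; CCl4 replicate 2 gave the lowest count in each except that erlotinib 2 mg replicate 2 also gave 5. Against vehicle the range was 0 to 1 at 2 mg (Pex11a without erlotinib 2 mg replicate 1, Slc22a5, lower, without replicate 2) and 0 to 0 at 5 mg; between the doses it was 0 to 1. The gap between compartments ranged from -0.47 to -0.12 with CCl4 and from 0.16 to 0.60 with erlotinib when an array was left out. With Ech1 and Eci2 as peroxisomal it reversed to 0.026 with CCl4 and came to 0.12 with erlotinib. Ech1 gave -0.27 with CCl4 and 0.49 with erlotinib, the latter a called difference. Eci2, under background on every array, gave -0.16 and 0.09.

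Of the other pathway genes, 8 were called with CCl4 and 10 with erlotinib under median scaling. Against vehicle they were 0 at each dose with median scaling and 1 at each dose with the authors' values, and 2 to 4 at each dose when an array was left out. Over single genes, 139 values lost their call, 18 gained one and 3234 stayed on their side of the threshold, and none turned its direction with a call. The 3234 include values that passed neither in the main fit nor in the alternative, whereas the 139 fall only on values called in the main fit. The total therefore does not give the share of calls that held. A slide block was not run, since the files name no slide. No paired analysis was possible because the replicate numbers follow record order and carry no pairing. Where a group keeps a lone array, its spread is borrowed from the other groups. Genes under background, among them Cpt1a, Ehhadh and Ppara, could not be read at this signal.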
